A study of Mus musculus with 6 samples.

Results

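The 9 genes described here are *Fgf5*, *Otx2*, *Pou3f1*, *Lin28a*, *Lin28b*, *Sall2*, *Zic2*, *Zic5* and *Utf1*. They were chosen by name as formative and primed epiblast genes. All 9 were found among the 24393 features counted in each library, and all 9 were among the 13846 genes with enough counts to be tested. RNA was sequenced from KH2 mouse embryonic stem cells in the non-differentiated state, in 3 control libraries (strain C57/BL/6, genotype CONTROL) and 3 HOXA13 libraries (the same strain, genotype HOXA13). KH2 is a mouse line built to accept transgenes that doxycycline switches on, and per the study's methods the HOXA13 clones carry the human *HOXA13* gene with its intron and an N-terminal FLAG tag. Both groups were grown in medium with LIF and fetal calf serum on irradiated 3T3-Swiss albino fibroblasts, so that each library may hold feeder RNA. The labels record that no treatment was applied, and the doxycycline exposure of these non-differentiated cultures is not given in the sources used here. The sources name biological replicates but not whether those of a group were separate clones, so the p-values measure only the spread between these libraries, which may be technical. With RNA from bulk cultures, fewer cells of a type and less RNA per cell cannot be told apart.

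Naive embryonic stem cells correspond to the epiblast of the blastocyst before implantation, and LIF helps to hold them in that state. On leaving it, cells pass through a formative phase and then a primed phase that resembles the epiblast after implantation, from which the germ layers arise. *Fgf5*, *Otx2* and *Pou3f1* are widely used as marks of that passage, and the RNA-binding proteins LIN28A and LIN28B are known for blocking the maturation of let-7 microRNAs in undifferentiated cells.

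Total counts ran from 14608681 to 21766589 in control libraries and from 13494135 to 20374341 in HOXA13 libraries, and the lowest level that a library could show, taken as 3 counts, was 0.134 to 0.227 CPM (counts scaled to a common library size, here with TMM factors). The human feature ENSG00000106031, which is *HOXA13*, held 6, 0 and 0 counts in control libraries 1, 2 and 3 and 4298, 4177 and 2881 counts in the HOXA13 libraries. Mouse *Hoxa13* held 16 to 23 counts in control libraries and 23 to 30 counts in HOXA13 libraries and was not called (adjusted p = 0.295). Of 7 embryonic stem cell markers read to check the label, 3 were called higher (*Nanog*, *Sox2* and *Sall4*) and 1 lower, with all 7 detected in every library. The lower one, named after its value was seen, was *Tdgf1*, a NODAL co-receptor that is also on the list of other formative and primed genes, which fell by 1.09 (SE 0.07, adjusted p = 3.03e-05) from 357.5 ± 14.3 to 167.8 ± 9.46 CPM (SD, n = 3 each). *Pou5f1*, the core pluripotency factor, stood at 706.4 ± 74.9 CPM (SD, n = 3) in control libraries and 690.1 ± 4.93 CPM in HOXA13 libraries. Its difference was not called (log2 fold change -0.03, adjusted p = 0.795). The summed level of 20 fibroblast markers was 14870, 20600 and 20060 CPM in control libraries 1, 2 and 3 and 17720 to 21650 CPM in HOXA13 libraries. Fibroblast-type RNA was thus present in both groups at overlapping levels, with control library 1 the lowest. The 10 primitive streak markers summed to 428, 41.2 and 188.7 CPM in control libraries 1, 2 and 3 and to 21.0 to 24.2 CPM in HOXA13 libraries.

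The 9 genes did not move as a block. Lower levels in the HOXA13 libraries were called for 5 of them, *Fgf5*, *Pou3f1*, *Sall2*, *Lin28a* and *Lin28b*, against 13.3% of all genes tested. A higher level was called for *Zic5* alone, against 14.4% of all genes tested, and *Otx2*, *Zic2* and *Utf1* did not pass the test. Of all genes tested 1994 were called higher and 1842 lower, a split that became 1576 and 2500 when libraries were scaled by library size alone. In all, 6 of the 9 were called in either direction, where 27.7% of all genes tested were. The median log2 fold change of the 9 was -0.41, beside 0.00 over all genes tested. The groups did not overlap for the 6 called genes and overlapped for the other 3, while 45.7% of all genes tested did not overlap. Calls and adjusted p-values come from the quasi-likelihood test of edgeR, adjusted by Benjamini-Hochberg across every gene tested, at a threshold of 0.05.

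**Figure D1:**
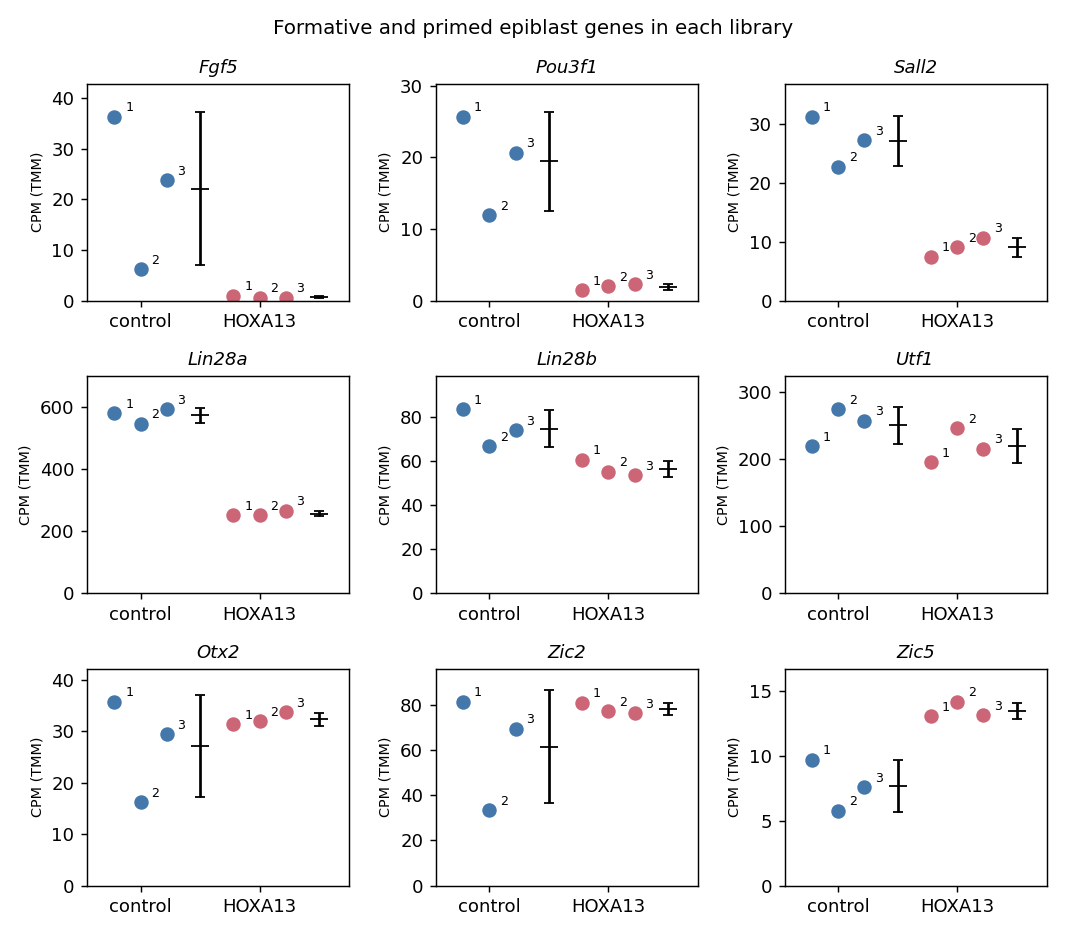
Level of each of the 9 genes in each of the 6 libraries, in CPM on a linear axis from 0, with 1 numbered point per library (control in blue, HOXA13 in red) and black bars for the mean and SD of each group (n = 3). *Fgf5* and *Pou3f1* show the widest gaps between the groups by fold (29.9-fold and 10.5-fold), and for *Otx2* and *Zic2* control library 2 stands below every other library.

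*Fgf5*, a secreted fibroblast growth factor that marks the epiblast after implantation, had the largest difference of the 9. It stood at 36.3, 6.25 and 23.8 CPM in control libraries 1, 2 and 3 and at 0.965, 0.606 and 0.605 CPM in the HOXA13 libraries. Each HOXA13 library was therefore below each control library, and the control libraries themselves were far apart. The means were 22.1 ± 15.1 CPM (SD, n = 3) and 0.725 ± 0.208 CPM (SD, n = 3). *Fgf5* fell by 4.90 on the log2 scale (SE 0.69, 95% interval -6.49 to -3.32, adjusted p = 0.0017), which is 29.9-fold lower. The HOXA13 values rest on 19, 11 and 8 counts and the control values are widely spread, so the fold is less precise than for the other members. The gene lies at chr5:98683203-98706049 on the plus strand (mm9, the build of the deposited counts). The 250 bases before its start site, from RefSeq (GRCm38.p6, chr5:98253934-98254183, plus strand), are shown because this is the member whose RNA differed most. They are 70.8% G or C with 24 CpG dinucleotides.

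*Fgf5*: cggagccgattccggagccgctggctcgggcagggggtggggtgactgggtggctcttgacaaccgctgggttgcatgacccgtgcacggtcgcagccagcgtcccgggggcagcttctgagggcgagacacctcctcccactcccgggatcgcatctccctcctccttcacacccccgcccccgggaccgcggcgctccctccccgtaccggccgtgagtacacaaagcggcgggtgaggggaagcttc

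In that window, on either strand, none of 5 letter strings was found. They were TTTATTG and TTTACGA, which HOX13 proteins are known to bind, the TCF/LEF strings CTTTGAA and CTTTGAT, and the octamer ATGCAAAT, to which POU factors bind. The shares of 32851 RefSeq promoter windows of the same length that hold them are 4.2%, 0.478%, 4.46%, 3.21% and 1.6%. No match says only that these letters are not in the window.

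*Pou3f1*, which encodes the POU-domain factor also called OCT6, followed. Its levels were 25.7, 12.0 and 20.7 CPM in control libraries 1, 2 and 3 and 1.42, 1.98 and 2.27 CPM in the HOXA13 libraries, with no overlap. The means were 19.4 ± 6.94 CPM and 1.89 ± 0.430 CPM (SD, n = 3 each). *Pou3f1* fell by 3.39 on the log2 scale (SE 0.32, 95% interval -4.12 to -2.66, adjusted p = 0.00026), or 10.5-fold. The gene is a single exon at chr4:124334889-124337899 on the plus strand (mm9), annotated under 2 gene identifiers.

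*Sall2*, a zinc finger transcription factor of the spalt family, was lower by a smaller step. Control libraries 1, 2 and 3 held 31.2, 22.7 and 27.2 CPM, and the HOXA13 libraries held 7.46, 9.03 and 10.7 CPM. The lowest control library was thus above the highest HOXA13 library. The means were 27.1 ± 4.26 CPM and 9.05 ± 1.60 CPM (SD, n = 3 each), and *Sall2* fell by 1.59 on the log2 scale (SE 0.16, 95% interval -1.97 to -1.21, adjusted p = 0.000403). The gene lies at chr14:52930847-52948437 on the minus strand (mm9). Among the other spalt genes, *Sall3* fell by 1.90 (SE 0.37, adjusted p = 0.00725) and *Sall1* fell by 0.54 (SE 0.11, adjusted p = 0.00973), while *Sall4*, which supports pluripotency, rose by 0.22 (SE 0.07, adjusted p = 0.0394). No paralog was called higher with library size alone, with the replicate block, without control library 3 or without HOXA13 library 1, 2 or 3, and 1 rather than 2 was called lower without HOXA13 library 1 or 2, while 2 were called higher without control library 2.

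*Lin28a* was among the most abundant of the 9 and had the tightest groups. Its levels were 580.0, 546.4 and 593.1 CPM in control libraries 1, 2 and 3 and 252.2, 251.2 and 265.3 CPM in the HOXA13 libraries. The gap between the groups was many times the spread within either of them. The means were 573.1 ± 24.1 CPM and 256.2 ± 7.90 CPM (SD, n = 3 each), and *Lin28a* fell by 1.16 on the log2 scale (SE 0.06, 95% interval -1.30 to -1.02, adjusted p = 1.71e-05), which is 2.24-fold lower. The gene lies at chr4:133559245-133574756 on the minus strand (mm9). The annotation gives it 103 exonic bases shared with *Gm13061*, a long noncoding RNA on the opposite strand, or 2.94% of its exonic bases, and *Gm13061* is not a feature of the count tables.

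*Lin28b*, the paralog of *Lin28a* on another chromosome (chr10:45096426-45206201, minus strand, mm9), differed less. It stood at 83.4, 66.6 and 74.0 CPM in control libraries 1, 2 and 3 and at 60.6, 55.1 and 53.5 CPM in the HOXA13 libraries. The groups were adjacent but did not overlap. The means were 74.7 ± 8.44 CPM and 56.4 ± 3.76 CPM (SD, n = 3 each), and *Lin28b* fell by 0.41 on the log2 scale (SE 0.10, 95% interval -0.63 to -0.18, adjusted p = 0.0173), or 1.33-fold. This call was lost without control library 3 (adjusted p = 0.0531), without HOXA13 library 2 (0.0788) or without HOXA13 library 3 (0.0784), with the log2 fold change between -0.49 and -0.32 over all 6 omissions. *Lin28b* counts came to 14.4%, 12.2% and 12.5% of *Lin28a* counts in control libraries 1, 2 and 3 and to 24%, 21.9% and 20.1% in the HOXA13 libraries. The balance between the paralogs therefore differed in every HOXA13 library from that in every control library.

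LIN28 proteins and let-7 microRNAs are known to repress each other, and the letters through which let-7 pairs with the LIN28 messages are shown for that reason. Of the 9 genes, only *Lin28a* and *Lin28b* hold the let-7 seed match CTACCTC in the 3′ UTR of the GENCODE transcript, at 2 and 4 places. The first lines are mature let-7 sequences from RefSeq with the seed (bases 2 to 8) in capitals, which 9 of the 10 mouse let-7 sequences share, and the others are the matches in mm9 with the matching letters in capitals, read 5′ to 3′ on the minus strand.
let-7a-5p: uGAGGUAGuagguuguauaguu
let-7g-5p: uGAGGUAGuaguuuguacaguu
*Lin28a*, chr4:133561104-133561111: cacagcctgttgaaCTACCTCAt
*Lin28a*, chr4:133560466-133560473: agatcgccacaaacCTACCTCAc
*Lin28b*, chr10:45100828-45100835: cccgggcgggaagtCTACCTCAt
*Lin28b*, chr10:45098455-45098461: atacttgttagtaaCTACCTCtg
*Lin28b*, chr10:45098283-45098289: tttacagcacatggCTACCTCcc
*Lin28b*, chr10:45096867-45096873: aatgatggcaccgaCTACCTCtt

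Both matches in *Lin28a* and the first of *Lin28b* are followed by an A, the letter that marks the stronger class of microRNA sites. A match is a description of letters and not evidence of pairing in these cells. Over all genes tested with at least 1 match in the 3′ UTR (n = 1331), a set taken after the values of the 9 genes were known, 13.2% were called higher and 16.2% lower, with a median log2 fold change of -0.028. Of the 468 genes with a match followed by A, 16.2% were called higher and 14.3% lower, and of the 164 with at least 2 matches 17.7% and 15.9%. Among the 11019 genes without a match, 14.7% were called higher and 13.7% lower, with a median of -0.0048. Mature let-7 was not measured, since the libraries were made from polyadenylated RNA. The 11 features named for let-7 microRNA genes held 11, 6 and 8 counts in all in control libraries 1, 2 and 3 and 22, 17 and 11 counts in the HOXA13 libraries, of which *Mirlet7d* held 49.

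*Lin28a* was also the only gene of the 7 with a RefSeq promoter entry whose 250 bases before a start site held any of the 5 strings. The 7 genes have 11 such windows between them, and *Pou3f1* and *Zic2* have no entry. The string was CTTTGAA, in capitals below, 72 bases before the start (GRCm38.p6, chr4:134018817-134019066, minus strand), in a window that is 61.2% G or C with 7 CpG dinucleotides.

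*Lin28a*: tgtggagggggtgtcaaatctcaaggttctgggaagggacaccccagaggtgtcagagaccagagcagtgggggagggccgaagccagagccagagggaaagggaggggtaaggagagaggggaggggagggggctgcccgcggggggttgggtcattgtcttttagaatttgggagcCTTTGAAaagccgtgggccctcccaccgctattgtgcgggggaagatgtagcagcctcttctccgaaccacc

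The 16 other genes of the LIN28 and let-7 axis did not move with *Lin28a* as a list. In it 2 genes were called higher and 3 lower, with a median log2 fold change of -0.01. The 3 called lower were *Igf2bp2*, which encodes an RNA-binding protein whose message is a let-7 target (log2 fold change -1.03, SE 0.08, adjusted p = 0.000131), *Drosha*, the nuclear enzyme that cuts primary microRNAs (log2 fold change -0.50, SE 0.07, adjusted p = 0.0017), and *Trim71*, a let-7 target and ubiquitin ligase of stem cells (log2 fold change -0.33, SE 0.07, adjusted p = 0.00883). *Nr6a1*, an orphan nuclear receptor, rose by 0.67 (SE 0.16, adjusted p = 0.0186), and *Dis3l2*, the nuclease that degrades uridylated pre-let-7, rose by 0.51 (SE 0.14, adjusted p = 0.0315). Neither of these increases was called once any HOXA13 library or control library 3 was left out, since the number called higher in the list was then 0. That number was 1 with each chromosome centred and 4 without control library 1, and the number called lower was 5 without control library 2.

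*Utf1*, a chromatin-associated factor of undifferentiated cells, is among the abundant members and overlapped between the groups. Its levels were 219.6, 274.5 and 257.4 CPM in control libraries 1, 2 and 3 and 195.7, 246.5 and 215.4 CPM in the HOXA13 libraries. The means were 250.5 ± 28.1 CPM and 219.2 ± 25.6 CPM (SD, n = 3 each), with a log2 fold change of -0.19 (95% interval -0.44 to 0.06, adjusted p = 0.226). A fall of up to 0.44 or a rise of up to 0.06 thus lies within the interval. Without control library 1 the value was -0.28 and passed the test (adjusted p = 0.044). *Utf1* lies at chr7:147129688-147131011 on the plus strand (mm9).

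*Otx2*, the homeobox factor that acts early in the move to the formative state, did not separate the groups. Control libraries 1, 2 and 3 held 35.7, 16.2 and 29.5 CPM and the HOXA13 libraries 31.3, 31.9 and 33.6 CPM. The HOXA13 libraries lay within the range of the control libraries, and control library 2 was the low one. The means were 27.1 ± 9.94 CPM and 32.3 ± 1.20 CPM (SD, n = 3 each), and the log2 fold change was 0.24 (SE 0.24, 95% interval -0.31 to 0.79, adjusted p = 0.498). Its sign turned without control library 2, to -0.026 (adjusted p = 0.878). The gene lies at chr14:49277354-49287319 on the minus strand (mm9).

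*Zic2* and *Zic5* encode zinc finger factors and lie head to head on chromosome 14, *Zic5* at chr14:122856017-122864899 on the minus strand and *Zic2* at chr14:122874604-122879074 on the plus strand (mm9), with their starts 9705 bases apart. *Zic2* held 81.4, 33.5 and 69.5 CPM in control libraries 1, 2 and 3 and 81.0, 77.2 and 76.4 CPM in the HOXA13 libraries. As for *Otx2*, control library 2 was the low one and the groups overlapped. The *Zic2* means were 61.5 ± 25.0 CPM and 78.2 ± 2.49 CPM (SD, n = 3 each), with a log2 fold change of 0.34 (SE 0.27, 95% interval -0.27 to 0.95, adjusted p = 0.381). Without control library 2 it was 0.041 (adjusted p = 0.754).

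*Zic5* held 9.72, 5.78 and 7.58 CPM in control libraries 1, 2 and 3 and 13.1, 14.2 and 13.2 CPM in the HOXA13 libraries, each of which was above each control library. The means were 7.69 ± 1.98 CPM and 13.5 ± 0.621 CPM (SD, n = 3 each). *Zic5* rose by 0.80 on the log2 scale (SE 0.18, 95% interval 0.38 to 1.22, adjusted p = 0.0140), which is 1.74-fold higher. The call was lost without control library 3 (adjusted p = 0.0537), HOXA13 library 1 (0.0579) or HOXA13 library 2 (0.0638), with the log2 fold change at 0.78, 0.82 and 0.76. *Zic5* counts were 11.9%, 17.2% and 10.9% of *Zic2* counts in control libraries 1, 2 and 3 and 16.2%, 18.4% and 17.2% in the HOXA13 libraries. In that ratio control library 2 stood with the HOXA13 libraries, so the shift of *Zic5* against its neighbour was not seen in every control library.

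*Otx2*, *Sall2*, *Zic2* and *Zic5* all lie on chromosome 14, whose 477 genes tested had a median log2 fold change of 0.26. The medians of the other chromosomes that hold members lay between -0.04 and 0.00. With each chromosome centred on its own median in each library, *Sall2* fell by 1.91 (adjusted p = 0.000582). *Zic5* was then at 0.47 and no longer passed the test (adjusted p = 0.192), *Otx2* was at -0.11 (adjusted p = 0.831) and *Zic2* at -0.015 (adjusted p = 0.98). Against the genes of its own chromosome the *Zic5* difference was thus smaller.

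**Figure D2:**
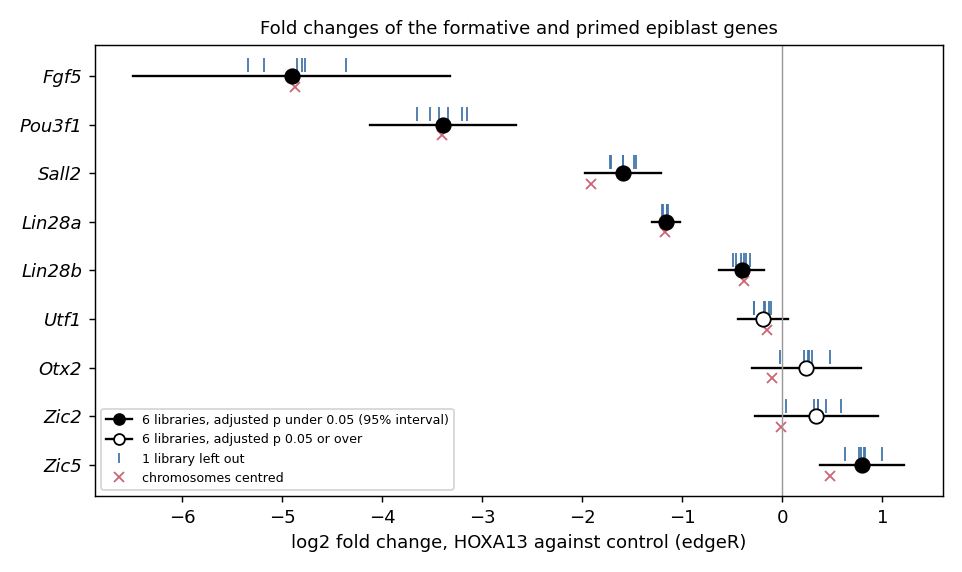
Log2 fold change of each gene, HOXA13 against control, as black points with the 95% interval (filled where the adjusted p was under 0.05, n = 3 libraries a group), blue ticks for the value with 1 library left out and red crosses for the value with chromosomes centred. *Fgf5* lies at -4.90 and *Zic5* at 0.80, and the intervals of *Otx2*, *Zic2* and *Utf1* include 0.

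In most of these genes, though not in *Sall2* and *Utf1*, the control libraries differed among themselves by more than the HOXA13 libraries did. Between the highest and the lowest control library, *Fgf5* differed by 2.53 on the log2 scale, *Zic2* by 1.28, *Otx2* by 1.14, *Pou3f1* by 1.10 and *Zic5* by 0.75. Among HOXA13 libraries the same ranges were 0.65, 0.09, 0.10, 0.66 and 0.12. For *Lin28a*, *Sall2* and *Utf1* the ranges were close in both groups, 0.12 and 0.08, 0.46 and 0.51, and 0.32 and 0.33, and for *Lin28b* they were 0.33 and 0.18. The medians over all genes tested were 0.32 among control libraries and 0.18 among HOXA13 libraries.

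The order of the control libraries was shared by most of the 9. In 7 of them control library 1 was highest and control library 2 lowest, an order that 25.5% of all genes tested had. *Lin28a*, with control library 3 highest, and *Utf1*, with control library 2 highest, were the exceptions. The primitive streak markers, which mark cells entering mesendoderm, had the same order as the 7 genes, with their sum in control library 1 far above that in control library 2. Their part in the differences of the 9 genes was not tested. In control library 2, *Fgf5* and *Pou3f1* were 3.09 and 2.67 above the mean of the HOXA13 libraries on the log2 scale, beside 5.63 and 3.77 in control library 1. Control library 2 had the lowest streak marker sum of the control libraries, at 41.2 CPM. That sum was itself above the 21.0 to 24.2 CPM of the HOXA13 libraries.

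**Figure D3:**
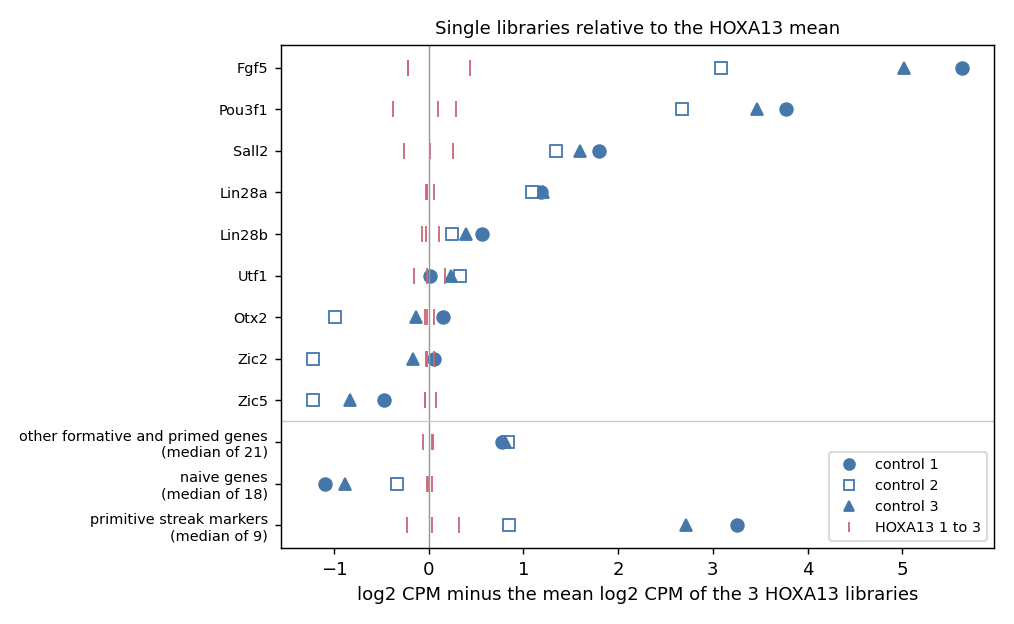
Log2 CPM of each library minus the mean of the HOXA13 libraries, for each of the 9 genes and, as medians, for 3 lists, with a blue symbol per control library and a red tick per HOXA13 library. For *Lin28a* the 3 control libraries sit together between 1.09 and 1.21, whereas for *Fgf5* they run from 3.09 to 5.63 and for *Zic2* from -1.22 to 0.06.

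Per kilobase of exon, which allows levels to be compared between genes, *Utf1* and *Lin28a* led in both groups. *Utf1* averaged 204 ± 22.9 RPKM (CPM divided by exonic kilobases, SD, n = 3) in control libraries and 179 ± 20.9 RPKM in HOXA13 libraries, and *Lin28a* 164 ± 6.87 and 73.1 ± 2.26 RPKM. *Zic2* came next at 14.7 ± 5.96 and 18.7 ± 0.595 RPKM. Below it, *Fgf5* (8.84 ± 6.03), *Lin28b* (8.24 ± 0.931), *Otx2* (7.99 ± 2.93), *Pou3f1* (6.46 ± 2.31) and *Sall2* (4.98 ± 0.784) followed in control libraries, where each differed from the next in this order by less than the larger of their SDs, though *Lin28b* and *Sall2* did not overlap, and *Zic5* was lowest at 1.57 ± 0.404 RPKM. In HOXA13 libraries these genes were further apart, with *Otx2* at 9.51 ± 0.353, *Lin28b* at 6.22 ± 0.415, *Zic5* at 2.76 ± 0.127, *Sall2* at 1.67 ± 0.294, *Pou3f1* at 0.628 ± 0.143 and *Fgf5* at 0.29 ± 0.083 RPKM. By group means *Fgf5* was thus at rank 4 in control and rank 9 in HOXA13 libraries, and *Zic5* at rank 9 and rank 6. In control library 2, however, *Fgf5* stood at 2.5 RPKM, below *Sall2* at 4.18 and *Pou3f1* at 3.97 RPKM.

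Other genes of the formative and primed states were mostly lower as well. Of 21 such genes, 15 were called lower and 1 higher, with a median log2 fold change of -0.70. The number called lower was 9 without HOXA13 library 1 and 12 to 15 without any other library. Large decreases were called in *Sox3*, a SOX factor of the early neural plate and epiblast (adjusted p = 0.00104), *Trh*, which encodes the thyrotropin-releasing hormone precursor, and *Wnt8a*, a secreted WNT ligand (adjusted p = 0.0125). *Sox3* held 122, 32 and 124 counts in control libraries 1, 2 and 3 and 2, 6 and 1 counts in the HOXA13 libraries, too close to the floor of 3 counts for a fold to be given. *Wnt8a* held 354, 20 and 137 counts in control libraries 1, 2 and 3 and 4, 14 and 8 counts in the HOXA13 libraries, so that control library 2, at 1.36 CPM, was close to HOXA13 library 2, at 0.771 CPM. *Trh* went from 622.7 ± 186.7 CPM to 30.3 ± 2.07 CPM (SD, n = 3 each), a log2 fold change of -4.36 (SE 0.22, adjusted p = 1.71e-05). Next came *Fgf15*, a growth factor (log2 fold change -3.85, SE 0.27, adjusted p = 6.88e-05), *Pim2*, a kinase (log2 fold change -3.53, SE 0.46, adjusted p = 0.00124), and *Dnmt3a*, a de novo DNA methyltransferase (log2 fold change -1.89, SE 0.19, adjusted p = 0.000393). *Etv4*, an ETS factor downstream of FGF signalling, rose by 0.84 (SE 0.19, adjusted p = 0.0142), and the number called higher was 0 without control library 3 or without HOXA13 library 1, 2 or 3, 2 without control library 1 and 3 without control library 2.

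Naive genes went the other way. Of 18 tested, 10 were called higher and 1 lower, with a median log2 fold change of 0.70. *Tfcp2l1*, a transcription factor of the naive network, rose by 2.24 (SE 0.38, adjusted p = 0.00401), from 343.7 ± 221.7 to 1624 ± 53.6 CPM (SD, n = 3 each). Control library 2 was the nearest to the HOXA13 libraries, with *Tfcp2l1* at 598.2 CPM beside 191.9 and 241.1 CPM in control libraries 1 and 3, and the naive genes together at 3169 CPM beside 1595 and 1943 CPM. *Tbx3* rose by 1.98 (SE 0.23), *Tet2*, an enzyme that oxidises methylated cytosine, by 1.64 (SE 0.25), *Dppa3* by 1.17 (SE 0.12), *Klf4* by 1.14 (SE 0.31) and *Fbxo15* by 1.07 (SE 0.10). *Nanog* rose by 0.57 (SE 0.07, adjusted p = 0.00095), and *Sox2*, which is on another list, by 0.54 (SE 0.17, adjusted p = 0.0431). In that list, of embryonic stem cell markers, the number called higher went from 3 to 1 with library size alone or without HOXA13 library 1, 2 or 3. *Fgf4*, the ligand through which stem cells stimulate their own ERK signalling, fell by 1.02 (SE 0.25, adjusted p = 0.0191), and the number called lower was 0 without control library 3 or without HOXA13 library 1, 2 or 3 and 2 without control library 1. The number called higher was 15 without control library 2 and 6 without HOXA13 library 2 or without HOXA13 library 3.

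ERK signalling, through FGF4, is known to drive exit from the naive state, and 12 of its response genes were read for that reason. Of these, 7 were called higher and 1 lower, with a median log2 fold change of 0.51. *Spry2*, a feedback inhibitor, rose by 1.08 (SE 0.28, adjusted p = 0.022), *Phlda1* by 0.68 (SE 0.09), the phosphatase *Dusp4* by 0.54 (SE 0.17), the immediate early gene *Egr1* by 0.54 (SE 0.11), *Spred2* by 0.53 (SE 0.11) and *Spry1* by 0.52 (SE 0.11). *Etv1*, an ETS factor, fell by 1.37 (SE 0.16, adjusted p = 0.000734). The number called higher was 3 without HOXA13 library 1 and 4 without HOXA13 library 2, and the number called lower was 3 without control library 1 and 2 without control library 2, with library size alone or with chromosomes centred.

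**Figure D4:**
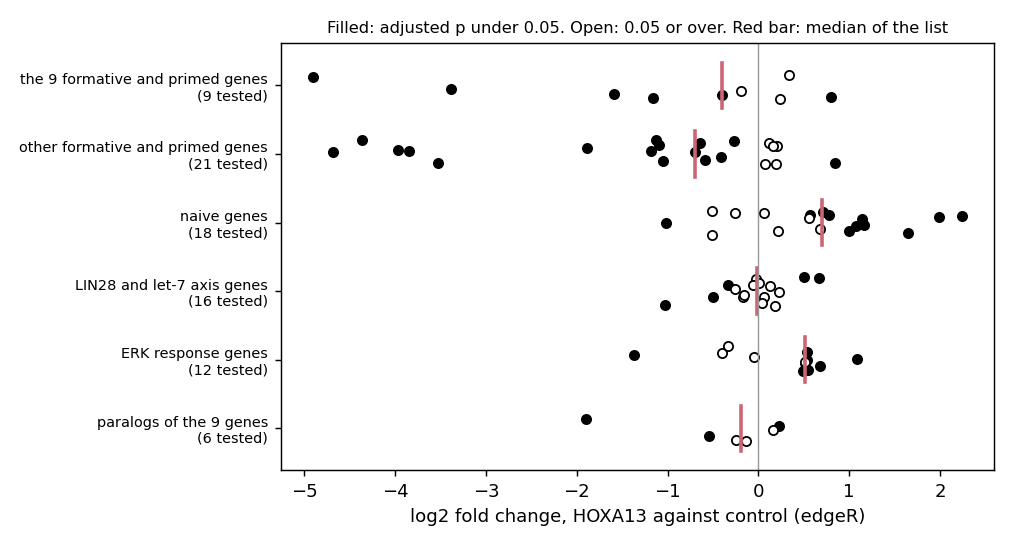
Log2 fold change, HOXA13 against control, of the genes tested in each list, with 1 point per gene (filled where the adjusted p was under 0.05) and a red bar at the median. The medians are -0.41 for the 9 genes, -0.70 for the other formative and primed genes, 0.70 for the naive genes and 0.51 for the ERK response genes.

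Markers of other cell types moved with the groups to differing degrees. Of 9 primitive streak markers tested, 5 were called lower and 0 higher, with a median log2 fold change of -1.87. The number lower was 2 without HOXA13 library 1 and 3 without HOXA13 library 2 or without HOXA13 library 3. It was 9 without control library 2 and 0 by limma-voom. Of the 6 neural markers tested, 3 were lower and 0 higher, and the other listed markers, *Sox1* and *Pax3* among them, did not pass the filter on low counts. *Sox1* held 9, 69 and 10 counts in control libraries 1, 2 and 3 and 2, 5 and 2 counts in the HOXA13 libraries, so that control library 2 stood apart. Summed over 11 listed, neural markers stood at 252.2 to 431.8 CPM in control libraries and 120.6 to 128.2 CPM in HOXA13 libraries. Most of the sum in control libraries 1 and 3 was *Nes*, an intermediate filament gene, at 322.4, 122.7 and 193.1 CPM in control libraries 1, 2 and 3. The part of these markers in the differences of the 9 genes was not tested. Of 20 fibroblast markers 0 were higher and 1 lower, and over all alternatives 0 to 2 were higher and 1 to 4 lower, with 4 lower without control library 1. Of 10 primitive endoderm markers 2 were higher and 3 lower, with 5 lower without control library 2 and 1 higher without HOXA13 library 1, 2 or 3. Paralogs of the 9 genes were mostly low: *Otx1*, *Crx*, *Pou3f2*, *Pou3f4* and *Zic4* were not tested, and *Zic1* and *Pou3f3* were not called.

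The genes whose pattern over the 6 libraries was most like that of each member were found among 11954 genes, the 9 left out, by Pearson's r of log2 CPM. The values are descriptions over 6 points that fall into 2 groups, so that for a gene that separates the groups r mostly records the gap between them. *Fgf5* was followed most closely by *Acss1* and *Emb*, *Pou3f1* by *Six4* and *Tuba1a*, *Sall2* by *Nuak2* and *Mboat1*, *Lin28a* by *Shc4* and *Nphs1*, and *Lin28b* by *Nup50* and *Dll1*, a NOTCH ligand. *Zic5* was followed by *Egln3* and *Pttg1*. For the genes that do not separate the groups, *Otx2* was followed by *Ppm1f* (r = 0.9968) and *Hip1* (r = 0.9942), *Zic2* by *Cep41* (r = 0.9954) and *Atp8a1* (r = 0.9885), and *Utf1* by *Slc35b2* (r = 0.9957) and *Pi15* (r = 0.9887). For *Otx2* and *Zic2*, control library 2 alone stood low, at 16.2 and 33.5 CPM, so that r mostly records that library. All these values were picked as the highest among 11954 genes over 6 libraries, which makes them high by selection.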

How the data were processed

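RNA of 3 control and 3 HOXA13 KH2 cultures was measured by stranded, polyadenylated RNA sequencing with reads of 75 bases. Per the labels' processing notes the authors used bcl2fastq 2.17, TopHat2 2.0.14 and HTSeq 0.6.1p1 on mm9. They deposited raw counts per gene, 1 table per library, without normalization or pooling. The annotation and strand setting of the counting are not given in the sources used here. The members and lists were chosen with earlier results of these data known.

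Counts were tested in R 4.3.3 with edgeR 4.0.16: filterByExpr (minimum count 10, minimum total 15), TMM factors, glmQLFit and glmQLFTest without covariates, and Benjamini-Hochberg adjustment over all 13846 genes tested, with calls at an adjusted p under 0.05. Log2 fold changes use a prior count of 0.125, and log2 CPM a prior count of 0.5. SE was taken as the absolute log2 fold change over the root of F, and intervals are 95%. RPKM used exonic lengths of GENCODE M1 (NCBIM37, the same assembly as mm9). The floor of 3 counts covers counting error only. The procedure was tested on simulated counts. Alternatives were DESeq2 1.42.0, limma-voom (limma 3.58.1), RLE factors, library size alone, other filters, robust estimation, a replicate block, centring of each chromosome, and omission of each library. Genes named are all 9 members, list genes past the threshold (up to 6 a list and direction), *Pou5f1*, *Sox2*, *Nanog*, the targeted gene and the 2 genes most like each member. Other list genes are named only where a list's members were not called or not tested, and *Tdgf1* after its value was seen.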

Additional observations from a re-analysis of the deposited data

How the results depend on the processing

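*Fgf5*, *Pou3f1*, *Lin28a* and *Sall2* stayed lower and past the threshold under every alternative that could test them. *Fgf5*, with 8 counts in HOXA13 library 3, was not tested when 10 counts were required in every library, so that 4 members were then lower. With each chromosome centred, 0 members were higher, *Otx2* was at -0.106 and *Zic2* at -0.0145, against 0.24 and 0.34. Over the omissions of single libraries, 4 to 6 members were lower and 0 to 1 higher, *Otx2* ran from -0.0257 to 0.479, 1134 to 2428 of all genes tested were higher and 904 to 2579 lower. Same-numbered libraries of the groups did not deviate together (correlations -0.0202, -0.0863 and 0.0666), which cannot exclude a pairing. With the replicate block 5 members were lower and 1 higher, and of all genes tested 1476 were lower and 1696 higher. The cause of these changes was not tested. Depth limits *Fgf5* most, with 8 to 19 counts in HOXA13 libraries.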
